A study of Mus musculus with 12 samples.

Results

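Desmosome genes and their regulators were followed in whole mouse embryos that carried 2, 1 or 0 copies of the whirligig (Whi) allele of Chd7, which encodes a chromatin remodelling enzyme. The 10 genes were Perp, Pkp1, Pkp2, Pkp4, Jup, Dsp, Dsg2, Dsc2, Dsc3 and Trp63, and every non-control probe whose transcript accession named one of them was used. They had 14 of the 39429 non-control probes of the array, 6 genes with 1 probe and 4 genes with 2. Of the 10 genes 8 entered the fit, which covered 22563 genes. The set was chosen by its signals on these arrays, since Perp and Pkp1 were among the genes that differed between homozygous and wild-type embryos, so the values of that contrast are given for all 10 genes as a description, with no p-value. Where the text says that a gene passed or lost the threshold in that contrast, the choice largely fixed it and nothing is supported by it.

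Desmosomes are spot-like junctions that tie the keratin or desmin filaments of neighbouring cells together, and they are abundant in epithelia and at the intercalated discs of the heart. Desmogleins and desmocollins are the cadherins that span the gap between the cells, plakoglobin (Jup) and the plakophilins bind them in the plaque under the membrane, and desmoplakin (Dsp) links the plaque to the filaments. Perp is a tetraspan membrane protein of desmosomes and a target of p53 and of p63, the product of Trp63, which stratified epithelia need in order to form.

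The study asked which genes depend on functional Chd7 when neural crest cells migrate. RNA of female embryos at embryonic day 9.5, freed of their yolk sacs, was hybridised to 12 one-colour Agilent whole-genome arrays. The embryos came from crosses of heterozygous whirligig mice on a mixed C3HeB/FeJ background, so they differ in the number of Whi alleles and share the line and the background. There were 4 Chd7Whi/Whi (labelled as Chd7 knockout), 4 Chd7Whi/+ and 4 Chd7+/+ samples, each a biological replicate on an array of its own, and replicate numbers are names without order. Whether a sample holds 1 embryo or several is not given in the sources used here. No probe was tied to Chd7 here, so the level of the mutated gene was not analysed and the labels have no check of that kind.

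Values are scaled log2 signals, that is the log2 processed signal of a probe minus the 75th percentile of its array, so 0 stands for the 75th percentile. On each array the scanner rated 69.1% to 75.7% of the probes as well above background, no spot was saturated, and the 75th percentile lay between 1095 and 1721 signal units. Signals of different probes are not set against each other, because probes differ in how brightly they bind. The precision is limited by the 4 arrays per genotype. A gene was called where the adjusted p of limma's moderated test (Benjamini-Hochberg, over all 22563 genes) was under 0.05.

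Some arrays stood apart in marker genes of single cell types. The summed scaled signal of 12 yolk sac and gut endoderm markers was 85.2 and 42.3 on the arrays of Chd7Whi/Whi replicates 1 and 2 and 8.35 and 12.9 on those of replicates 3 and 4. It was between 19.01 and 36.8 on the Chd7Whi/+ arrays and between 10.6 and 38.6 on the Chd7+/+ arrays, with Chd7+/+ replicate 2 the highest of these. The summed signal of 19 cardiomyocyte markers was 14.2 on the array of Chd7Whi/+ replicate 1 and between 183 and 295 on the other 11 arrays. Erythroid markers summed to 111, 92.5, 314 and 282 on the arrays of Chd7Whi/Whi replicates 1 to 4. They summed to between 201 and 369 on the Chd7Whi/+ arrays, and to 319, 190, 110 and 337 on those of Chd7+/+ replicates 1 to 4.

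Perp was lower in homozygotes than in wild type, with heterozygotes between them. Its scaled log2 signal was -0.48, -0.66, -0.40 and -0.46 on the 4 Chd7Whi/Whi arrays, -0.12, -0.07, -0.32 and -0.36 on the 4 Chd7Whi/+ arrays, and 0.19, 0.44, 0.43 and 0.53 on the 4 Chd7+/+ arrays. Every homozygous array was below every heterozygous one, and every heterozygous array was below every wild-type one. The means were -0.50 ± 0.11 in Chd7Whi/Whi, -0.22 ± 0.15 in Chd7Whi/+ and 0.40 ± 0.15 in Chd7+/+ embryos (SD, n = 4 each). In an RNA sample of a whole embryo, fewer cells of a type and less RNA per cell cannot be told apart.

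The log2 difference of Perp between Chd7Whi/Whi and Chd7+/+ was -0.90 ± 0.11 (SE), a 1.86-fold lower signal. Within the 3 slides it was -0.67, -1.10 and -0.96, and at array position 3, the single position with both genotypes (2 homozygous arrays, 1 wild-type array), it was -0.87. Leaving out each of the 12 arrays in turn gave between -0.97 and -0.84. Position 1 held 3 wild-type arrays and no others, and with array position as a block neither Perp nor Pkp1 passed.

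Between Chd7Whi/+ and Chd7+/+ embryos Perp differed by -0.62 ± 0.11 (SE), with a 95% interval of -0.85 to -0.38. This difference did not pass (limma, unadjusted p = 9.7e-05, adjusted p = 0.223), and it uses the same wild-type arrays as the contrast by which Perp was picked. All 4 heterozygous arrays were below all 4 wild-type arrays. Within the 3 slides the difference was -0.28, -0.76 and -0.89. Between Chd7Whi/Whi and Chd7Whi/+ embryos it was -0.28 ± 0.11 (SE), which did not pass (limma, unadjusted p = 0.0216, adjusted p = 0.740), with within-slide values of -0.39, -0.34 and -0.07.

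Perp was chosen for part of the separation of its 3 genotypes, so the shares of all genes that follow are given for scale and support nothing about it. No pair of genotypes shared any part of its range for 67 of the 22563 genes (0.297%), and 45 of these (0.199%) had homozygotes lowest and wild type highest. Perp was the single one of the 8 tested desmosome genes with such a pattern. A heterozygous mean between the other means was found for 41.4% of all genes and for 5 of the 8 tested desmosome genes, namely Perp, Pkp1, Dsp, Dsg2 and Dsc2.

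**Figure D1:**
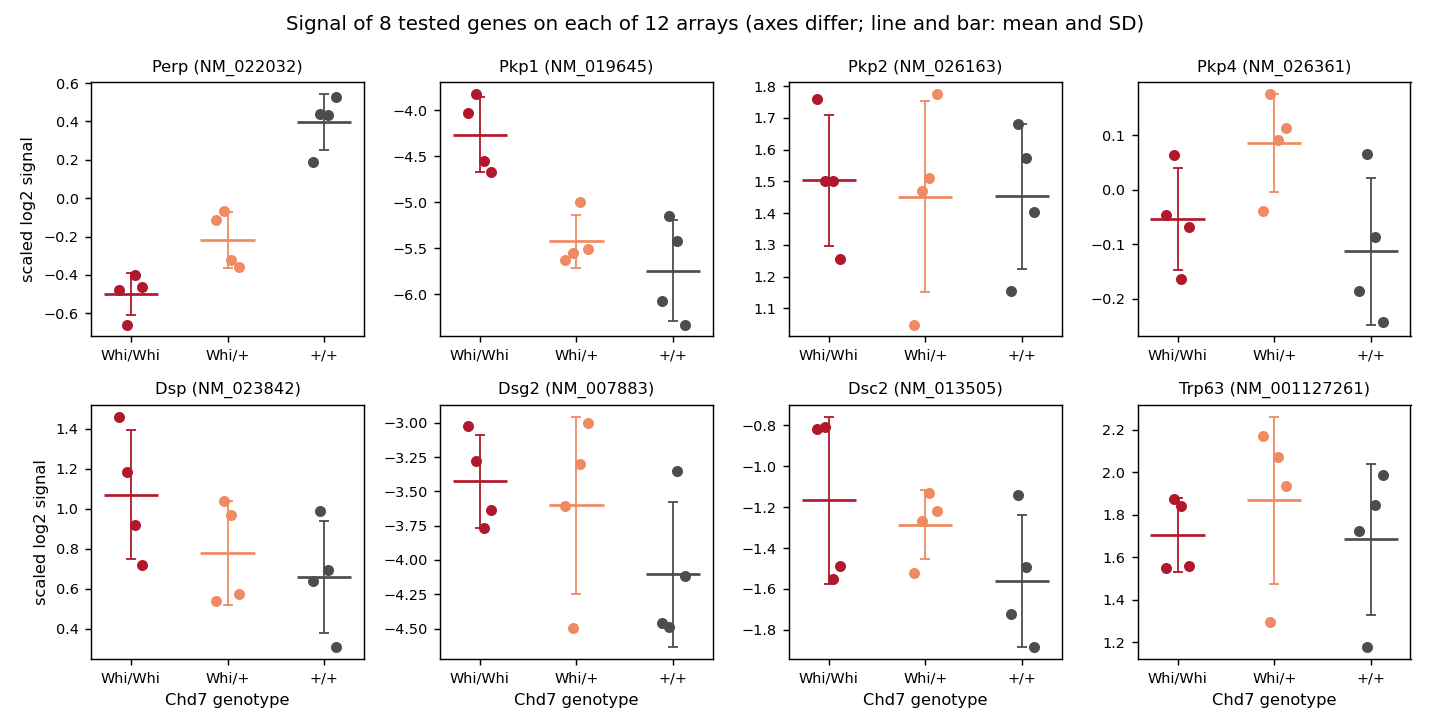
Scaled log2 signal (vertical axes, which differ between panels) of the 8 tested genes on the 12 arrays, by Chd7 genotype, with 1 point per array, lines for means and bars for SD (n = 4 each). The 3 genotypes do not overlap for Perp, the Chd7Whi/Whi arrays lie above all others for Pkp1, and the genotypes overlap for the other 6 genes.

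Pkp1, the plakophilin 1 of the desmosomal plaque in stratified epithelia, was higher in homozygotes than in both other genotypes. Its scaled log2 signal was -4.03, -3.82, -4.55 and -4.67 on the Chd7Whi/Whi arrays, -5.63, -5.55, -5.002 and -5.51 on the Chd7Whi/+ arrays, and -6.08, -5.16, -5.42 and -6.33 on the Chd7+/+ arrays. Every homozygous array was above every other array, while heterozygous and wild-type arrays overlapped. The means were -4.27 ± 0.41 in Chd7Whi/Whi, -5.42 ± 0.29 in Chd7Whi/+ and -5.75 ± 0.55 in Chd7+/+ embryos (SD, n = 4 each).

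The log2 difference of Pkp1 between Chd7Whi/Whi and Chd7+/+ was 1.48 ± 0.27 (SE), a 2.78-fold higher signal. Within the 3 slides it was 2.05, 1.47 and 1.72, and at array position 3 it was 1.13. Between Chd7Whi/Whi and Chd7Whi/+ it was 1.15 ± 0.27 (SE), with a 95% interval of 0.56 to 1.75, and did not pass (limma, unadjusted p = 0.00122, adjusted p = 0.362). With slide as a block this difference was 1.22 and passed (limma, adjusted p = 0.0381), and both versions use the homozygous arrays by which Pkp1 was picked. Between Chd7Whi/+ and Chd7+/+ it was 0.32 ± 0.27 (SE), with a 95% interval of -0.27 to 0.92 (limma, adjusted p = 0.547).

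The call of Pkp1 rested on a dim probe and on few arrays. Its signal exceeded the lowest signal of any probe well above background on the same array by 2.001 to 3.15 log2 units in Chd7Whi/Whi, by 0.93 to 1.43 in Chd7Whi/+ and by 0.88 to 1.91 in Chd7+/+ embryos. The difference between Chd7Whi/Whi and Chd7+/+ ran from 1.28 to 1.67 when each array was left out in turn, and Pkp1 no longer passed without Chd7Whi/Whi replicate 1, Chd7Whi/Whi replicate 2, Chd7+/+ replicate 1 or Chd7+/+ replicate 4.

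With normexp background correction in place of the scanner's own, the Pkp1 difference between Chd7Whi/Whi and Chd7+/+ was 0.24 and did not pass. Under that correction Pkp1 lay at -3.45, -3.22, -3.50 and -3.83 on the Chd7Whi/Whi arrays, at -4.05, -3.86, -3.97 and -3.75 on the Chd7Whi/+ arrays, and at -4.11, -2.46, -4.02 and -4.36 on the Chd7+/+ arrays. The array of Chd7+/+ replicate 2 was then above all others, and the remaining 3 wild-type arrays were below all homozygous ones. On that array the 5th percentile of all normexp values was -2.64, against -4.79 to -4.23 on the other 11 arrays. Without it the normexp difference was 0.67, and Pkp1 did not pass.

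**Figure D2:**
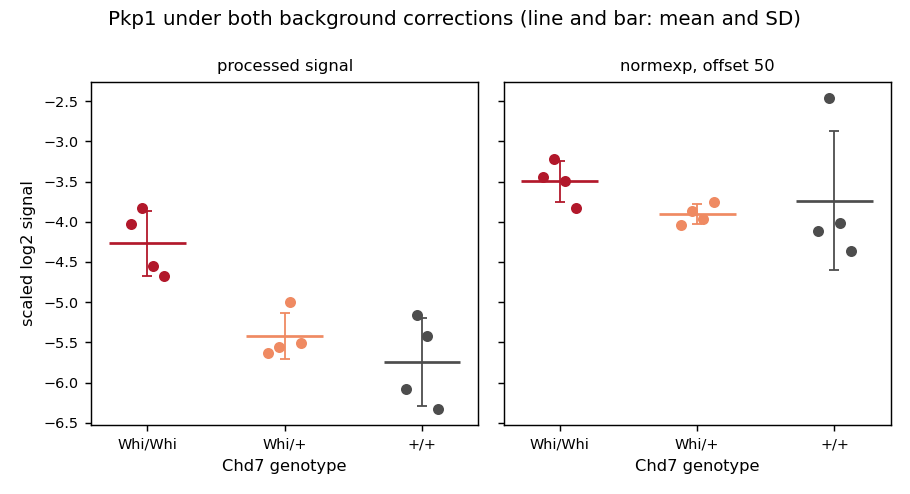
Scaled log2 signal of Pkp1 (vertical axis, shared) on the 12 arrays with the scanner's processed signal (left) and with normexp correction, offset 50 (right), by Chd7 genotype, with 1 point per array, lines for means and bars for SD (n = 4 each). With normexp 1 Chd7+/+ array, replicate 2, lies at -2.46, above all others.

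The other plaque proteins did not pass in any comparison. Pkp2, the plakophilin that the heart depends on, averaged 1.504 ± 0.21 in Chd7Whi/Whi, 1.45 ± 0.30 in Chd7Whi/+ and 1.45 ± 0.23 in Chd7+/+ embryos (SD, n = 4 each). Its differences were 0.05 for Chd7Whi/Whi and -0.0014 for Chd7Whi/+ against Chd7+/+, and the 95% interval of the Chd7Whi/+ difference ran from -0.37 to 0.36. The lowest of the 12 Pkp2 values, 1.05, was that of Chd7Whi/+ replicate 1, the array on which cardiomyocyte markers were 12.9-fold lower than on the lowest other array. The part of heart tissue in that value was not tested.

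Pkp4, a plakophilin-related protein found at adherens junctions as well as desmosomes, averaged -0.05 ± 0.09 in Chd7Whi/Whi, 0.09 ± 0.09 in Chd7Whi/+ and -0.11 ± 0.13 in Chd7+/+ embryos (SD, n = 4 each). The genotypes overlapped, and the difference of 0.20 ± 0.09 (SE) between Chd7Whi/+ and Chd7+/+ did not pass (limma, adjusted p = 0.334). Its differences of Chd7Whi/Whi were 0.06 against Chd7+/+ and -0.14 against Chd7Whi/+.

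Jup, which serves both desmosomes and adherens junctions, was close to background and was not tested. Its probe was well above background on 2 Chd7Whi/Whi arrays (replicates 1 and 2), on 1 Chd7Whi/+ array (replicate 4) and on 0 Chd7+/+ arrays. The signal was -6.48, -6.37, -6.46 and -6.67 in Chd7Whi/Whi, -6.59, -6.74, -6.22 and -5.98 in Chd7Whi/+, and -7.56, -7.13, -6.52 and -7.38 in Chd7+/+ embryos. The groups overlapped, and because the probe was not well above background on every array of any genotype, no fold change is given.

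Dsp, the link between plaque and filaments, was read by a probe printed 10 times per array and by a dim probe printed once. The first probe lay at 1.46, 1.18, 0.92 and 0.72 in Chd7Whi/Whi, at 0.54, 1.04, 0.97 and 0.57 in Chd7Whi/+, and at 0.64, 0.99, 0.70 and 0.31 in Chd7+/+ embryos. The groups overlapped, with Chd7Whi/Whi replicates 1 and 2 above all other arrays. The SD between the spots of that probe on an array was between 0.02 and 0.16, against an SD between arrays of a genotype of 0.32 in Chd7Whi/Whi, 0.26 in Chd7Whi/+ and 0.28 in Chd7+/+ embryos.

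The differences of this Dsp probe were 0.41 ± 0.19 for Chd7Whi/Whi and 0.12 ± 0.19 for Chd7Whi/+ against Chd7+/+, and 0.29 ± 0.19 between Chd7Whi/Whi and Chd7Whi/+ (SE). Neither comparison with Chd7Whi/+ passed (limma, adjusted p = 0.755 for Chd7Whi/+ against Chd7+/+ and 0.911 for Chd7Whi/Whi against Chd7Whi/+). The dim probe had differences of the same signs, at 0.73, 0.31 and 0.42, and its groups overlapped as well.

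Among the cadherins, Dsg2, the desmoglein of simple epithelia and heart, lay at -3.03, -3.28, -3.77 and -3.64 in Chd7Whi/Whi, at -3.61, -4.50, -3.30 and -3.00 in Chd7Whi/+, and at -4.46, -4.49, -3.35 and -4.12 in Chd7+/+ embryos. The groups overlapped, and 1 heterozygous array was the highest of the 12 while another was the lowest. The differences were 0.68 ± 0.33 for Chd7Whi/Whi and 0.50 ± 0.33 for Chd7Whi/+ against Chd7+/+ (SE), and the second of these did not pass (limma, adjusted p = 0.447). A second Dsg2 probe was well above background on 8 arrays, namely 4 Chd7+/+, 2 Chd7Whi/Whi and 2 Chd7Whi/+ arrays. Its differences, 0.22 and 0.20 in the same order, are therefore limited by background.

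Dsc2, the most widely expressed desmocollin, split the homozygous embryos. It lay at -0.82, -0.81, -1.55 and -1.49 on the Chd7Whi/Whi arrays, at -1.52, -1.27, -1.13 and -1.22 on the Chd7Whi/+ arrays, and at -1.72, -1.14, -1.49 and -1.88 on the Chd7+/+ arrays. Chd7Whi/Whi replicates 1 and 2 were above all other arrays, and replicates 3 and 4 lay within the wild-type range. The differences were 0.39 ± 0.21 for Chd7Whi/Whi and 0.27 ± 0.21 for Chd7Whi/+ against Chd7+/+ (SE), the second with adjusted p = 0.502 by limma. Dsc3, a desmocollin of basal stratified epithelium, had 2 probes, neither well above background on any array, and gets no fold change.

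Trp63 gave different pictures by its 2 probes, which the array ties to different transcripts. The probe for NM_001127261, the brighter, averaged 1.71 ± 0.17 in Chd7Whi/Whi, 1.87 ± 0.39 in Chd7Whi/+ and 1.68 ± 0.36 in Chd7+/+ embryos (SD, n = 4 each), with overlapping groups and differences of 0.02 for Chd7Whi/Whi and 0.18 for Chd7Whi/+ against Chd7+/+. The probe for NM_011641 lay at -3.53, -3.20, -2.84 and -2.69 in Chd7Whi/Whi, at -2.43, -2.24, -3.49 and -3.35 in Chd7Whi/+, and at -2.04, -2.29, -2.12 and -2.11 in Chd7+/+ embryos. On this probe all homozygous arrays were below all wild-type arrays, and the heterozygous arrays split into 2 near the wild-type values and 2 near the lowest homozygous ones. The 2 near the wild-type values were both on slide 1. Within slides 1, 2 and 3 the difference against Chd7+/+ was -0.30, -1.29 and -1.25 for Chd7Whi/+ and -1.49, -0.99 and -0.66 for Chd7Whi/Whi.

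The differences on the NM_011641 probe were -0.92 for Chd7Whi/Whi and -0.74 for Chd7Whi/+ against Chd7+/+. In a fit of all 27544 measured probes on their own neither passed, and the second had an unadjusted p of 0.0200 and an adjusted p of 0.278 (limma). The mean of both probes gave -0.45 for Chd7Whi/Whi against Chd7+/+, where the brighter probe alone gave 0.02. Which transcripts each probe detects in these embryos was not tested.

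**Figure D3:**
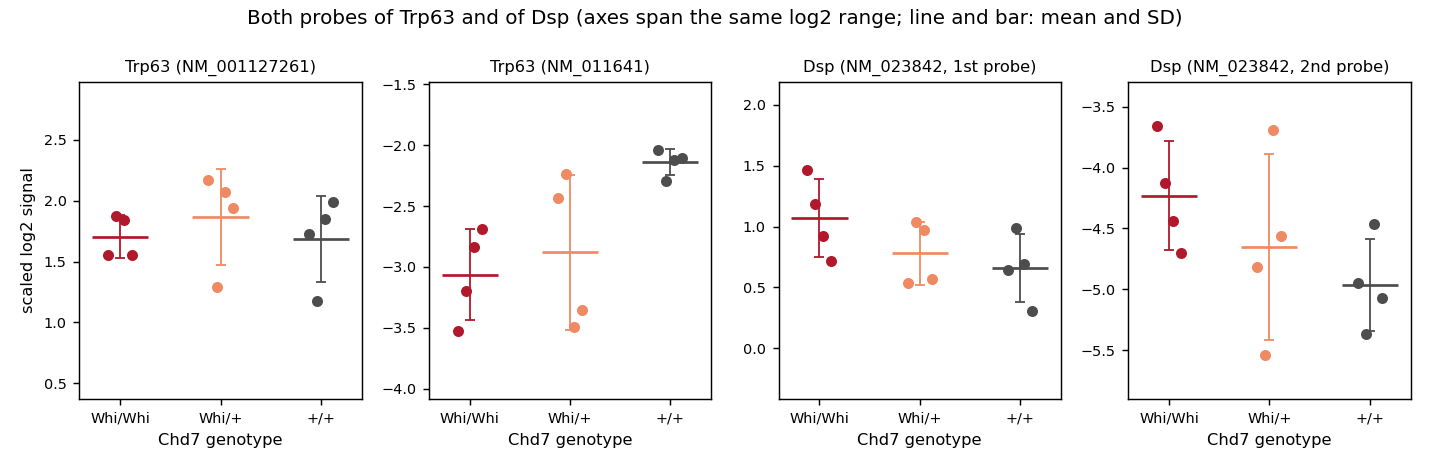
Scaled log2 signal (vertical axes, of equal span but different position) of both probes of Trp63 and both probes of Dsp by Chd7 genotype, with 1 point per array, lines for means and bars for SD (n = 4 each). The NM_011641 probe of Trp63 lies lower on all Chd7Whi/Whi arrays than on any Chd7+/+ array, the other Trp63 probe overlaps, and both Dsp probes have their Chd7Whi/Whi mean above their Chd7+/+ mean.

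Counted over the 8 tested genes, 2 were called between Chd7Whi/Whi and Chd7+/+, Pkp1 higher and Perp lower, beside 1.35% of all genes (305 called, of which 0.488% of all genes were higher and 0.864% lower). These are the genes the choice rested on, and nothing is read from that count. No desmosome gene was called between Chd7Whi/+ and Chd7+/+, where 0.00886% of all genes were, or between Chd7Whi/Whi and Chd7Whi/+, where 0.0133% were. At an unadjusted p under 0.05 in limma's test, 1 of 8 stood out between Chd7Whi/+ and Chd7+/+ (Perp, lower) beside 15.4% of all genes, and 2 of 8 between Chd7Whi/Whi and Chd7Whi/+ (Perp lower, Pkp1 higher) beside 6% of all genes. The arrays of the compared genotypes lay fully apart for 2 of 8 between Chd7Whi/Whi and Chd7+/+ (14.1% of all genes), for 1 of 8 between Chd7Whi/+ and Chd7+/+ (6.67%) and for 2 of 8 between Chd7Whi/Whi and Chd7Whi/+ (2.98%). Each comparison uses homozygous or wild-type arrays by which Perp and Pkp1 were picked, so nothing is read from these counts either.

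In direction, 7 of the 8 tested genes had a higher mean in Chd7Whi/Whi than in Chd7+/+ embryos, all but Perp, with a median log2 difference of 0.23 against 0.02 over all genes. Between Chd7Whi/+ and Chd7+/+ it was 6 of 8 with a median of 0.19 against 0.04 over all genes, and between Chd7Whi/Whi and Chd7Whi/+ it was 5 of 8 with a median of 0.09 against -0.03. Trp63 was counted by its brighter probe, at 0.02 for Chd7Whi/Whi and 0.18 for Chd7Whi/+ against Chd7+/+. Its other probe was lower in both, at -0.92 and -0.74. Pkp2 at 0.05 and Pkp4 at 0.06 for Chd7Whi/Whi against Chd7+/+ were close to 0 and changed sign in some of the alternative settings. The comparisons share arrays with each other, so the 3 medians are not independent.

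**Figure D4:**
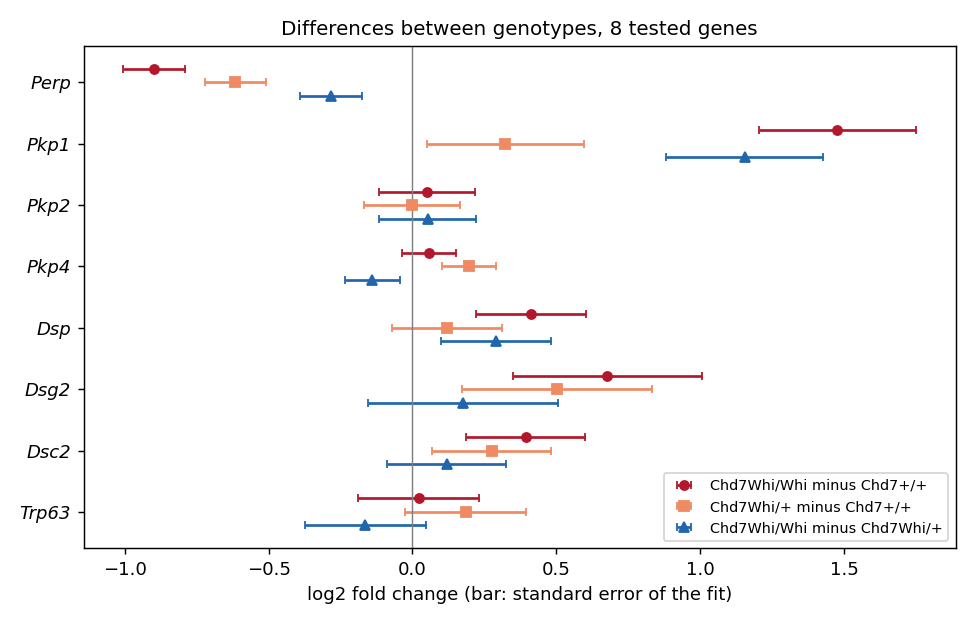
Log2 fold change (horizontal axis) of the 8 tested genes in the 3 comparisons, with points for the estimates and bars for the standard error of limma's fit. Perp lies left of 0 in all 3 comparisons, Pkp1 lies at 1.48 and 1.15 in the comparisons of Chd7Whi/Whi embryos, and the bars of Pkp2 cross 0 in each.

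Some arrays that were high or low in Pkp1, Dsp and Dsc2 were also high or low in marker genes of epithelia and endoderm, and others were not. All 22 markers of surface ectoderm and other epithelia were measured on all 12 arrays, and their mean log2 signal was -1.18, -1.20, -1.59 and -1.72 on the Chd7Whi/Whi arrays, -1.65, -1.79, -1.57 and -1.58 on the Chd7Whi/+ arrays, and -2.05, -1.58, -1.61 and -1.98 on the Chd7+/+ arrays. Chd7Whi/Whi replicates 1 and 2 were thus the highest in these markers, in the yolk sac and gut endoderm list and in Pkp1, Dsp and Dsc2, and Chd7+/+ replicates 1 and 4 were the lowest wild-type arrays in both lists and in Pkp1, Dsp and Dsc2. The summed scaled signal of the 22 epithelial markers was between 13.6 and 19.9 in Chd7Whi/Whi, between 14.4 and 16.3 in Chd7Whi/+ and between 11.7 and 16.8 in Chd7+/+ embryos, and no marker of this list was at background. Chd7Whi/Whi replicates 3 and 4 ranked 3 and 4 of 12 for Pkp1. Their endoderm means of -1.86 and -1.38 were below those of all Chd7Whi/+ arrays. Chd7Whi/+ replicate 2 was the lowest heterozygous array in the epithelial list, at -1.79, and the highest for Dsp, at 1.04. The other genes had other orders. Chd7Whi/Whi replicates 1 and 2 ranked 2 and 3 of 12 for Dsg2, behind a heterozygous array. They ranked 2 and 6 for Pkp2, 7 and 5 for Pkp4, and 10 and 5 for Trp63. Erythroid markers went the other way on the same arrays. Chd7Whi/Whi replicates 1 and 2 were the lowest homozygous arrays in them, and Chd7+/+ replicates 1 and 4 the highest wild-type ones. The part of epithelial, endoderm or erythroid cells in the desmosome values was not tested.

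Without Chd7Whi/Whi replicates 1 and 2, a setting chosen after seeing the data, the differences between Chd7Whi/Whi and Chd7+/+ were -0.83 for Perp, 1.13 for Pkp1, 0.16 for Dsp, 0.40 for Dsg2 and 0.04 for Dsc2. Neither Perp nor Pkp1 then passed, with 2 homozygous arrays left and 53 of 22562 genes called. The arrays left out were the 2 highest of all 12 for Pkp1, Dsp and Dsc2 and the 2 lowest for Perp, so smaller differences of these 4 genes follow from which arrays were left out and show nothing about the markers.

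**Figure D5:**
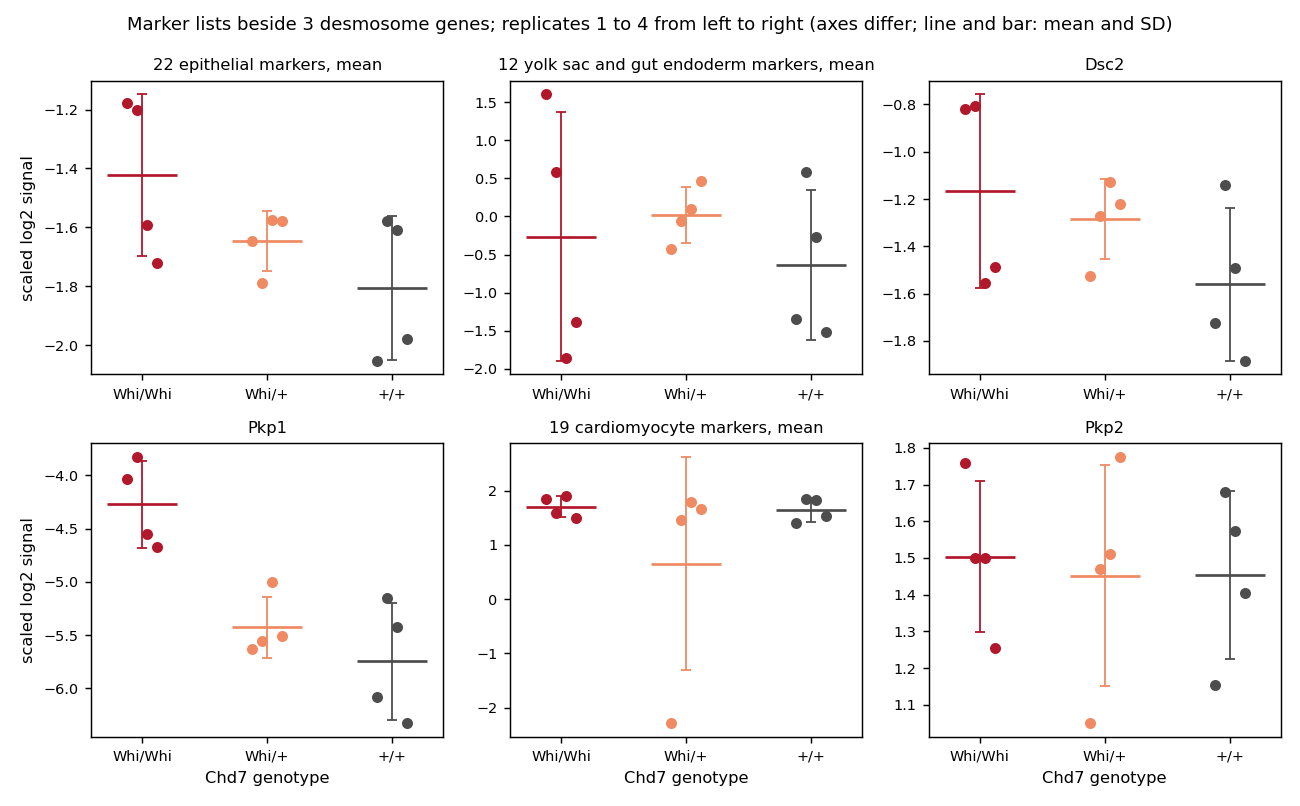
Mean scaled log2 signal of 3 marker lists and scaled log2 signal of Dsc2, Pkp1 and Pkp2 (vertical axes, which differ) by Chd7 genotype, with 1 point per array, replicates 1 to 4 from left to right, lines for means and bars for SD (n = 4 each). Chd7Whi/Whi replicates 1 and 2 lie above replicates 3 and 4 in the epithelial list, the endoderm list, Dsc2 and Pkp1, and Chd7Whi/+ replicate 1 is the lowest array of the cardiomyocyte list and of Pkp2.

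Genes that work beside the desmosome were counted in the same fit for Chd7Whi/Whi against Chd7+/+. The lists were chosen with earlier results of these data known, so their calls are given as a description. Over all genes 305 were called in this comparison (1.35%), and 17% had an unadjusted p under 0.05. The share of all genes higher in value was not counted, and their median difference was 0.02. With array position as a block 20 genes were called in place of 305. Whether genes of these lists were among them was not examined. Of 11 other desmosome and cornified envelope genes 5 were measured well enough to test and 0 passed in either direction, with 2 of 5 at an unadjusted p under 0.05, beside 17% of all genes. Ppl (periplakin) differed by 0.55 ± 0.15 (SE, adjusted p = 0.112 by limma) and Evpl (envoplakin) by 0.35 ± 0.13 (SE, adjusted p = 0.210), both partners of the plaque in stratified epithelium. Of 8 epithelial keratins 0 passed, with 3 of 8 at an unadjusted p under 0.05 and 7 of 8 higher in value (median 0.44). The 2 with the smallest p were Krt15 at 0.84 ± 0.23 (adjusted p = 0.112) and Krt19 at 0.90 ± 0.26 (adjusted p = 0.133).

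Of the 22 epithelial markers 1 passed, beside 1.35% of all genes, and 7, all higher, had an unadjusted p under 0.05, beside 17%. In value 21 were higher, with a median of 0.39 against 0.02 over all genes. The marker that passed was Cldn3, a claudin of tight junctions, which rose by 0.72 ± 0.11 (SE, adjusted p = 0.0113 by limma). Cldn3 lay at 0.12, 0.22, -0.15 and -0.13 in Chd7Whi/Whi, at -0.52, -0.67, -0.43 and -0.63 in Chd7Whi/+, and at -0.91, -0.71, -0.59 and -0.60 in Chd7+/+ embryos, so all homozygous arrays were above all others. It was also the 1 of 16 tight junction genes that passed (12 higher in value, median 0.33). Of these 16 genes, 4 higher and 2 lower had an unadjusted p under 0.05.

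Of 16 adherens junction genes 1 passed, beside 1.35% of all genes. It was Cdh11, a cadherin of mesenchyme, which fell by 0.54 on the log2 scale (SE 0.10, adjusted p = 0.0188 by limma). In value 8 were higher and 8 lower, and 2 higher and 2 lower had an unadjusted p under 0.05. Of 12 tested hemidesmosome and basement membrane genes 0 passed and 10 were higher in value. An unadjusted p under 0.05 was found for 4 higher and 1 lower, beside 17% of all genes. Plec, the plakin plectin, had the smallest p there at 0.53 ± 0.12 (SE, adjusted p = 0.0698), followed by Frem1 at -0.27 ± 0.08 (adjusted p = 0.158).

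Of 14 genes of the p63 network 1 passed (1.35% of all genes), and 3, all higher, had an unadjusted p under 0.05 (17%). In value 13 were higher (median 0.20), among them Itgb4 at 0.00047 and Krt14 at 0.0089. Krt5 and Krt14 are also in the keratin list, and Fras1 and Itgb4 in the hemidesmosome list. The gene that passed was Tfap2c, which encodes AP-2γ, a transcription factor of early surface ectoderm and neural crest. It rose by 1.01 ± 0.15 (SE, adjusted p = 0.00655 by limma). Tfap2c lay at -0.26, -0.09, 0.05 and -0.44 in Chd7Whi/Whi, at -0.92, -0.70, -0.84 and -0.56 in Chd7Whi/+, and at -1.39, -0.87, -1.11 and -1.39 in Chd7+/+ embryos. All homozygous arrays were above all others.

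Of 19 tested p53 pathway genes 0 passed, 6 were higher and 13 lower in value, and the median was -0.11. At an unadjusted p under 0.05 there was 1 of 19, Trp73, a relative of p53, at 0.41 ± 0.19 (SE, adjusted p = 0.294 by limma), and next came Sesn2 at 0.39 ± 0.18 (adjusted p = 0.298). Of 19 cardiomyocyte markers 0 passed and 1 had an unadjusted p under 0.05, namely Pln, the calcium pump regulator phospholamban, at -2.34 ± 0.56 (SE). The Pln probe was well above background on 7 of 12 arrays. Its mean was -4.59 in Chd7+/+ and -6.93 in Chd7Whi/Whi embryos. The lowest signal well above background on an array was between -7.21 and -6.43. The size of that Pln difference is therefore limited by background. The filter asks for signal on every array of at least 1 genotype, so Pln could enter the fit by its high Chd7+/+ signal alone. Nothing is read from its p. Of 9 tested partners of the intercalated disc 0 passed, and 0 had an unadjusted p under 0.05. The yolk sac, erythroid and endothelial lists had 0 calls of 12, 9 and 7 genes. At an unadjusted p under 0.05 there were 2, 0 and 2, beside 17% of all genes.

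No gene of these lists was called between Chd7Whi/+ and Chd7+/+ or between Chd7Whi/Whi and Chd7Whi/+ by limma. Of all genes 0.00886% and 0.0133% were called in these comparisons. In a list 0 to 4 genes had an unadjusted p under 0.05, beside 15.4% of all genes in the first comparison and 6% in the second. In the comparison of Chd7Whi/+ with Chd7+/+ embryos, the gene with the smallest p of a list was lower in value for Ctnna2 of the adherens junction list, at -0.63 ± 0.16 (SE, adjusted p = 0.237 by limma), for Pln, at -1.83 ± 0.56, and for Ovol1 of the epithelial markers, at -0.29 ± 0.12 (adjusted p = 0.291). It was higher in value for Nrap of the intercalated disc list, at 0.65 ± 0.16 (adjusted p = 0.237), Trp73, at 0.89 ± 0.19 (adjusted p = 0.232), Pkp3, another plakophilin, at 0.46 ± 0.14 (adjusted p = 0.238), and Sfn of the p63 network, at 0.67 ± 0.21 (adjusted p = 0.238). The same held for Krt19, at 0.68 ± 0.26 (adjusted p = 0.276), and Lama3 of the hemidesmosome list, at 0.51 ± 0.19 (adjusted p = 0.268). The Pln probe was near background, and its SD was 1.51 in Chd7Whi/+ against 0.30 in Chd7+/+ embryos. Pln could enter the fit by its high Chd7+/+ signal alone, so its p is not read here either. Cardiomyocyte markers were low on the array of Chd7Whi/+ replicate 1, and the part of that array in the Pln difference was not tested. Between Chd7Whi/Whi and Chd7Whi/+, the 3 list genes called above differed by 0.58 ± 0.11 for Cldn3 (SE, adjusted p = 0.224), by -0.37 ± 0.10 for Cdh11 and by 0.57 ± 0.15 for Tfap2c (adjusted p = 0.445 for both Cdh11 and Tfap2c).

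The named genes whose signal followed Perp most closely over the 12 arrays were Myot (Pearson r = 0.963), Fancl (0.958), Dach2 (0.955), Clec1b (0.944) and Faxc (0.941), out of 15021 compared. For Pkp1 they were Extl1 (0.957), Igfbp6 (0.954), Ak8 (0.947), Bphl (0.943) and Tmem63a (0.943). The 100th closest gene still had r = 0.879 for Perp and 0.833 for Pkp1. The 12 points share their genotype groups and their arrays, so these values describe likeness over this set of embryos. Of the deviations from genotype means alone, r was between 0.552 and 0.810 for the 5 genes nearest Perp and between 0.807 and 0.949 for the 5 nearest Pkp1.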

How the data were processed

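The scanner files of 12 one-colour arrays were used. They hold spot intensity values that the authors obtained with Agilent Feature Extraction 10.7.3.1, per the submitters' processing notes. limma is named there too. The processed signal, a background-subtracted intensity per the file headers, was the starting value, and the deposited value table held the same numbers. After leaving out 1377 control spots and outlier spots, spots of a probe were averaged and log2 signals were scaled to each array's 75th percentile. Transcript accessions named 26055 of 39429 probes (19751 genes), and the other 13374 kept their identifier. A gene was read by its probe of highest mean signal and tested where that probe was well above background on every array of at least 1 genotype. limma 3.58.1 (R 4.3.3) fitted the 3 genotypes together over 22563 genes, with lmFit and eBayes, and the procedure was tested on simulated data. Figures used matplotlib 3.10.9. Each p-value sets a genotype difference against the spread between these arrays, pooled over the 3 genotypes and moderated over all genes tested.

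The desmosome genes and the other gene lists were chosen with earlier results of these data known. Named were all 10 genes, from each list up to 2 genes with the smallest p, and the 5 genes nearest Perp and Pkp1. Alternatives were normexp (median spot signal and median local background, offset 50), quantile normalization, other probe filters and summaries, blocks for slide, array position and title number, other variance settings, and leaving out arrays.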

Additional observations from a re-analysis of the deposited data

Results flagged for a closer look

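Among 42 sets of 4 arrays (14 probes by 3 genotypes), 1 had a value far from the other 3 by Dixon's test, where chance gives about 1 in 20. It was a Dsc3 probe on the array of Chd7+/+ replicate 3, at -8.11 with the nearest wild-type array at -8.73, and the gap was 0.886 of the group's range. On none of the 12 arrays was that probe well above background.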

How the results depend on the processing

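The count of desmosome genes called between Chd7Whi/Whi and Chd7+/+ was 2. It was 1 (Perp) with normexp and with normexp without Chd7+/+ replicate 2, and 0 with array position as a block, with title number as a replicate block, and without Chd7Whi/Whi replicates 1 and 2. The settings without Chd7+/+ replicate 2 in normexp and without those homozygous arrays were chosen after seeing the data. Leaving out 1 array at a time gave 1 to 2. Over all genes the count of 305 was 91 with normexp, 188 with no filter on dim probes, 20 with position, 19 with title number, 53 without both homozygous arrays and 521 with array weights. Between Chd7Whi/Whi and Chd7Whi/+ the count of 0 was 1 with slide as a block (Pkp1), and between Chd7Whi/+ and Chd7+/+ it was 0 throughout. Title numbers share no stated source: deviations of embryos with the same number had r between -0.32 and 0.29 (mean 0.03, 11 pairs), and with that replicate block Perp differed by -0.94 and Pkp1 by 1.53. Signs changed only in differences that did not pass. Between Chd7Whi/Whi and Chd7+/+, Trp63 was -0.45 with the mean of probes, -0.00089 with slide, -0.15 with position, -0.022 with array weights and -0.16 with normexp without Chd7+/+ replicate 2. Pkp2 was -0.068 with title number and -0.075 without both homozygous arrays, Pkp4 -0.019 with position and -0.0037 without both homozygous arrays, and Dsg2 -0.047 with position. Between Chd7Whi/+ and Chd7+/+, Pkp1 was -0.17 with normexp and -0.044 with position, Dsg2 -0.19 with position, and Trp63 -0.28 with the mean of probes and -0.11 with normexp without Chd7+/+ replicate 2. Pkp2 there was 0.079 with normexp, 0.12 with normexp without Chd7+/+ replicate 2, 0.019 with quantile normalization, 0.054 with slide, 0.13 with position and 0.00052 with title number. Between Chd7Whi/Whi and Chd7Whi/+, Pkp2 was -0.074 with position and without both homozygous arrays and -0.068 with title number, Dsc2 -0.0065 with title number and -0.23 without both homozygous arrays, Dsg2 -0.10 without both homozygous arrays, and Trp63 0.093 with title number. With 1 array left out, signs changed between Chd7Whi/Whi and Chd7+/+ for Pkp2 (-0.048 to 0.13) and Trp63 (-0.15 to 0.12), between Chd7Whi/+ and Chd7+/+ for Pkp2 (-0.11 to 0.13), and between Chd7Whi/Whi and Chd7Whi/+ for Pkp2 (-0.082 to 0.16), Dsg2 (-0.12 to 0.38) and Dsc2 (-0.00083 to 0.25). The cause of these changes was not tested. Dim probes (Pkp1, Jup, Dsc3, the second probes of Dsp and Dsg2) limit what can be read.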
